A study of Mus musculus with 16 samples.

Results

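Teeth of the lower jaw were compared with molars of the upper jaw in tooth germs of C57Bl6 mouse embryos at E14.5, the cap stage of tooth development. The comparison used all 16 samples of the series by their labels. They include 1 incisor array that the study itself discarded for a technical problem. The 12 lower jaw samples were 4 lower incisor and 8 mandibular first molar samples, and the 4 upper jaw samples were maxillary first molars. No treatment, mutation or transgene was part of the design, and each sample was RNA of 4 pooled tooth germs on 1 Affymetrix Mouse Gene 1.0 ST array. Upper incisors were not sampled, so the lower jaw group held a pair of tooth types and the upper jaw group held molars alone. The jaw program was defined as the probe sets that changed in the same direction against maxillary molars in incisors and in mandibular molars, taken separately. It held 383 genes of 19938 measured.

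The upper and lower jaw form from parts of the first pharyngeal arch, whose neural crest mesenchyme takes on a jaw identity before teeth appear. In the mandibular part, endothelin signalling through *Edn1* induces *Dlx5*, *Dlx6* and the *Hand* genes, which hold the lower jaw fate. *Dlx1* and *Dlx2* are expressed in both parts, while the maxillary part, without that signal, expresses other regulators, among them *Pou3f3*. Whether tooth germs of the cap stage still carry such a difference is what a comparison of the jaws within one tooth row can measure.

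The samples of the lower jaw were not alike in other respects. Their median log2 signals were close, between 6.80 and 6.99. Over all probe sets, the correlation of a mandibular molar 5 to 8 with a maxillary molar was 0.994 at the median of the pairs, and its correlation with a mandibular molar 1 to 4 was 0.99. Mandibular molars 1 to 4 and lower incisors also correlated at 0.99. Mandibular molars 1 to 4 differed from 5 to 8 at 11.8% of 28936 probe sets, by the test used throughout. This test was limma with an adjusted p under 0.1 and a fold change above 1.2. The labels do not say whether pools came from separate litters, so the p-values cover variation among these arrays alone. Each mandibular molar 5 to 8 thus correlated better with each maxillary molar, at 0.992 or more, than with any incisor or mandibular molar 1 to 4, at 0.991 or less, although the labels name no such set. The other 8 arrays were not set apart as clearly, since mandibular molars 1 to 4 had the same median correlation with incisors and with mandibular molars 5 to 8. Where the sample set is a block below, incisors and mandibular molars 1 to 4 form the other set. Between lower incisors and maxillary molars, tooth type, jaw and set cannot be told apart. Mandibular molars 5 to 8 against maxillary molars is the comparison of the jaws within 1 set, and the described members that did not pass there are named at the end.

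With the 12 lower jaw samples pooled, 41 probe sets were higher and 54 lower than in maxillary molars at a fold change above 2, together 0.324% of 29356 tested. At a fold change above 1.2 the numbers were 695 and 786, or 5.04%. Taken separately, incisors differed from maxillary molars at 27.8% of the probe sets tested and mandibular molars at 2.18%, both at a fold change above 1.2. At a fold change above 2 these shares were 1.82% (530) and 0.196% (57). Of 28787 probe sets tested in both, 223 were higher in both lower jaw tooth types (0.775%) and 271 were lower in both (0.941%), and 17 passed with opposite signs. Both comparisons used the same 4 maxillary samples, so a deviation of those samples enters both. Without maxillary molar 1, 2 or 3 the program had 209, 207 or 303 probe sets, and the pooled comparison had 44 past a fold change of 2 without maxillary molar 1 and 52 without maxillary molar 2. Of the 494 program probe sets 422 carried 1 gene symbol, and counted once per gene they were 174 genes higher and 209 lower in the lower jaw. All 12 lower jaw samples lay above all 4 maxillary samples for 175 of the 223 and below them for 218 of the 271, against 1.58% and 1.54% of all probe sets. The rule itself favours such members. The median log2 fold change of the higher members was 0.65 in incisors and 0.44 in mandibular molars, and that of the lower members was -0.73 and -0.52.

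**Figure D1:**
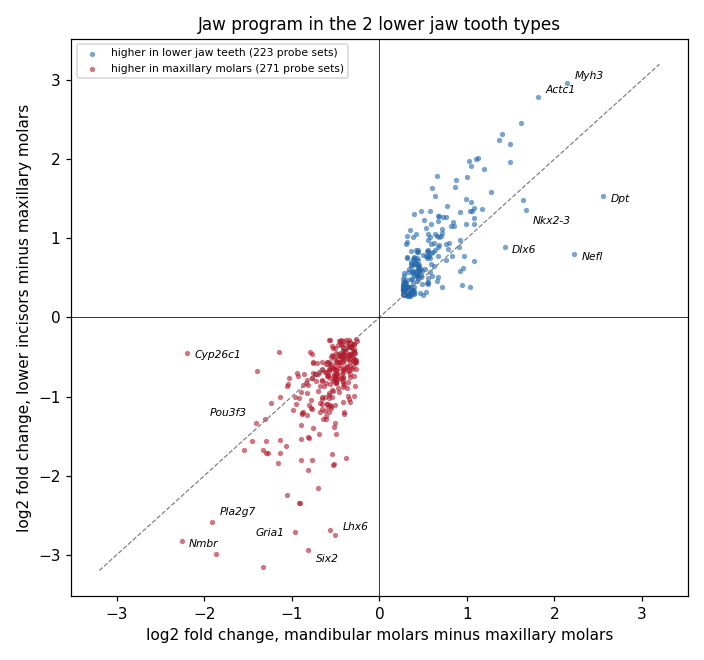
Log2 fold change of each of the 494 jaw program probe sets in mandibular molars (horizontal) and lower incisors (vertical), both against the same 4 maxillary molar samples, with equal change on the dashed line. The rule places the points in the upper right and lower left, and the medians of the higher members are 0.65 on the incisor axis and 0.44 on the mandibular axis.

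Transcription factor genes of the lower jaw are described first. *Nkx2-3*, a homeobox gene of the pharyngeal region needed for spleen and salivary gland development, had log2 signals of 7.77, 8.26, 8.02 and 7.81 in the incisors. In the 8 mandibular molars it lay at 7.91 to 8.42 with a median of 8.31, and in the maxillary molars at 6.56, 6.55, 6.70 and 6.63. Every lower jaw sample of either tooth type thus lay more than 1 log2 unit above every maxillary sample. The log2 fold change of the pooled lower jaw was 1.57 (standard error 0.12, limma, adjusted p = 2.49e-06), and it was 1.71 (adjusted p = 8.38e-06) between mandibular molars 5 to 8 and maxillary molars. *Dlx6*, a distal-less homeobox gene and a target of endothelin signalling in the mandibular arch, had 8.79, 8.88, 7.96 and 8.80 in incisors. Its mandibular molars lay at 8.74 to 9.54 with a median of 9.08 and its maxillary molars at 7.74, 7.83, 7.52 and 7.76. The jaws did not overlap, although lower incisor 3 lay close to the upper jaw. The log2 fold change was 1.25 (standard error 0.19, adjusted p = 0.00272), and 1.36 within the set of mandibular molars 5 to 8. With the sample set as a block the incisor difference of *Dlx6* was 0.75 (adjusted p = 0.228).

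*Gsc*, the goosecoid homeobox gene of the distal first arch, had 8.61, 8.81, 8.23 and 8.65 in incisors, 8.03 to 8.80 with a median of 8.21 in mandibular molars, and 7.41, 7.34, 7.58 and 7.36 in maxillary molars. No sample crossed between the jaws (log2 fold change 0.93, standard error 0.14, adjusted p = 0.00239). *Pitx1*, a paired-like homeobox gene needed for hindlimb and mandible development, had 10.08, 10.68, 10.41 and 10.57 in incisors against 9.79, 9.96, 10.14 and 10.22 in maxillary molars. Here lower incisor 1 lay within the maxillary range, while all mandibular molars, at 10.65 to 11.33, lay above it. Its log2 fold change was 0.41 in incisors and 0.94 in mandibular molars, and with the set as a block the incisor value was -0.01 (adjusted p = 0.993). The T-box gene *Tbx4* was higher at 0.59 (standard error 0.17, adjusted p = 0.0775), with 1.02 in incisors and 0.38 in mandibular molars. The gene lists used here and below were written with earlier results of these data known, so their shares are descriptions. Of the 26 measured genes of the lower jaw patterning list 5 were higher in the pooled lower jaw (2.37% of all probe sets) and 3 lower (2.68% of all), with a median log2 fold change of 0.10 against 0.03 over all probe sets. The program, with 0.775% of all probe sets higher and 0.941% lower, held 5 of them as higher, and *Bmper*, a regulator of BMP signalling, and *Cited1*, a transcriptional cofactor gene, as lower, at -1.19 and -0.82. *Edn1*, the signal at the top of this pathway, had 0.06 (adjusted p = 0.6), and *Dlx5*, the neighbour of *Dlx6*, had 0.03 (adjusted p = 0.928). *Hand2* was higher in incisors by 3.85 (adjusted p = 4.26e-07) and had 0.20 (adjusted p = 0.16) in mandibular molars, so it was no member.

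**Figure D2:**
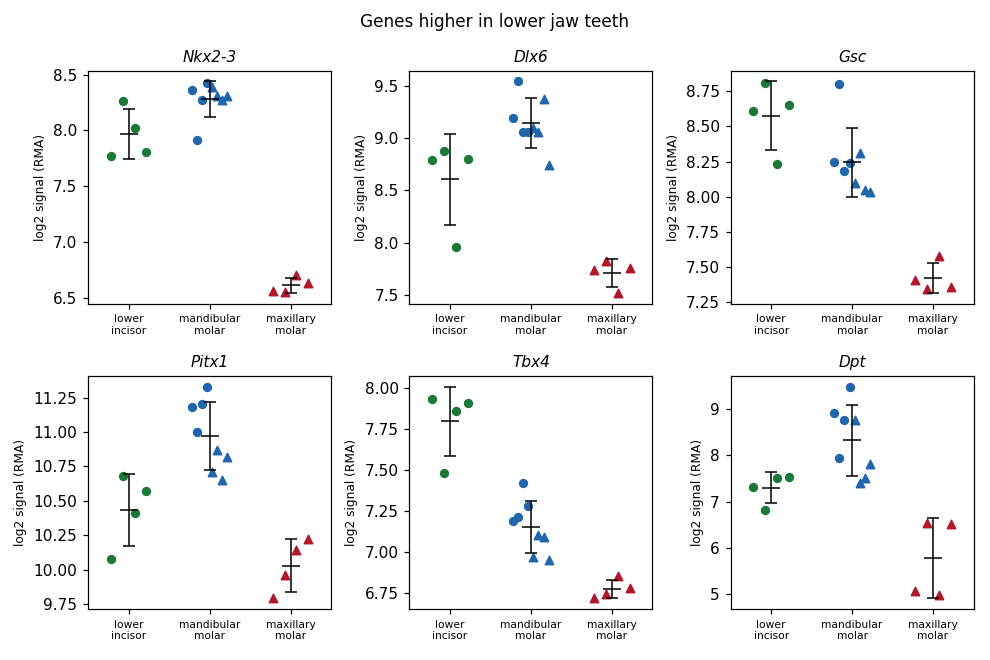
Log2 signal of *Nkx2-3*, *Dlx6*, *Gsc*, *Pitx1*, *Tbx4* and *Dpt* for each array of the 3 tooth types, with bars at the mean and SD of each type and triangles for maxillary molars and mandibular molars 5 to 8. The jaws are apart in every panel but that of *Pitx1*, where lower incisor 1 at 10.08 lies below maxillary molars 3 and 4.

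Several regulators of the upper jaw were lower in the lower jaw. *Pou3f3*, a POU-domain transcription factor gene, had 9.27, 9.22, 9.25 and 9.25 in maxillary molars, 8.02, 7.55, 8.15 and 8.14 in incisors, and 7.66 to 8.56 with a median of 7.81 in mandibular molars. *Pantr1*, a noncoding RNA gene that neighbours *Pou3f3*, had 7.20, 7.61, 7.15 and 7.38 in maxillary molars and 5.55 to 6.27 in the 12 lower jaw samples. For both genes the upper jaw samples lay above all others, and neither gene differed between the lower jaw tooth types past the test. The pooled log2 fold changes were -1.30 (standard error 0.14, adjusted p = 0.000111) and -1.39 (standard error 0.12, adjusted p = 4.97e-06), and within 1 set they were -1.34 and -1.53. *Rorb*, a retinoid-related orphan receptor gene, had 7.78 to 7.86 in maxillary molars and 6.24 to 6.88 in the lower jaw (-1.19, standard error 0.11, adjusted p = 1.7e-05). The Iroquois homeobox gene *Irx5* was lower at -0.46 (standard error 0.10, adjusted p = 0.0201), with the highest lower jaw sample, lower incisor 3 at 8.10, next to the lowest maxillary sample at 8.14. *Dlx1*, a distal-less homeobox gene expressed through the arch, was lower by 1.78 in incisors and had -0.38 in mandibular molars, both past the test. Pooled, it had -0.84 and did not pass (adjusted p = 0.137). The upper jaw patterning list was also written with earlier results of these data known, so its shares are no independent test. Of its 19 measured genes 7 were lower in the pooled lower jaw, against 2.68% of all probe sets, and none higher, with a median of -0.28. The program held 6, all lower, against 0.941% of all. Of the others, *Dlx2* (-0.65) and *Eya1* (-0.71) passed only in incisors and in the pooled comparison.

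Promoter windows of RefSeq, build GRCm38.p6, each with 250 bases before and 50 after the start of the gene, are printed for *Nkx2-3*, for the upper jaw regulator *Pou3f3* and for *Nmbr*, which had the largest pooled fold change. Capitals mark a match to one of 4 letter strings searched on both strands, TAATTA (of homeodomain factors), TAATCC (of paired-like factors such as *Pitx1* and *Gsc*), CAGCTG (an E-box of bHLH factors) and AGGTCA (a site of nuclear receptors such as *Rorb*). The windows of *Nkx2-3* and *Pou3f3* held none, and that of *Nmbr* held AGGTCA once, on the opposite strand.
Nkx2-3 (chr19:43612075-43612374, plus strand): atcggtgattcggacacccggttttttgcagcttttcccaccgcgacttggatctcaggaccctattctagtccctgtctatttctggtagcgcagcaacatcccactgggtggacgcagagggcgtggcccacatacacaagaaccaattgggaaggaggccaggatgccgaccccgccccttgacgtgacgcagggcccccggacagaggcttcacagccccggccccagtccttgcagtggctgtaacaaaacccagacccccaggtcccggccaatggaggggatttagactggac
Pou3f3 (chr1:42695518-42695817, plus strand): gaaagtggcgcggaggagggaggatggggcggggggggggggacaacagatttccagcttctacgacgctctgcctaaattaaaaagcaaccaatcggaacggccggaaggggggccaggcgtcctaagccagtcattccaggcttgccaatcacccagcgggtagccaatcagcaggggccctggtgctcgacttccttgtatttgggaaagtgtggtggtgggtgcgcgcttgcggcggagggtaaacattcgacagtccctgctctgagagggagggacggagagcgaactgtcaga
Nmbr (chr10:14759697-14759996, plus strand): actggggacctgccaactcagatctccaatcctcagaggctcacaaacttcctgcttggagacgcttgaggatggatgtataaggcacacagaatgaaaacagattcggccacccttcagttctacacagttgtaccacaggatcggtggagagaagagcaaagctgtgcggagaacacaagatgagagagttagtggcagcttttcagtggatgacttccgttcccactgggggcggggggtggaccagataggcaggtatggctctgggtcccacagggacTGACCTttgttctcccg

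*Nmbr*, the gene of the neuromedin B receptor, a G protein-coupled peptide receptor, had the largest pooled fold change. Its log2 signal was 8.60, 8.34, 8.36 and 8.26 in maxillary molars, 5.52, 5.77, 5.43 and 5.57 in incisors, and 5.86 to 6.38 with a median of 6.12 in mandibular molars. Each maxillary sample was above each lower jaw sample. The log2 fold change was -2.45 (standard error 0.16, adjusted p = 8.14e-07) or 5.45-fold. *Pla2g7*, whose enzyme degrades platelet-activating factor, had 9.78, 9.37, 9.24 and 9.27 in maxillary molars and 6.57 to 7.84 in the lower jaw (-2.13, standard error 0.22, adjusted p = 6.46e-05). In incisors both genes were lower still than in mandibular molars, by 0.56 (adjusted p = 0.00777) and 0.68 (adjusted p = 0.0541). *Ndst4*, a heparan sulfate N-deacetylase and N-sulfotransferase gene, had 6.97, 5.83, 5.73 and 5.59 in maxillary molars and 4.23 to 4.69 in the lower jaw, where no sample reached the filter of 5. Its fold change of -1.59 therefore rests on 1 jaw at the dim end of the array. *Slc10a4*, a transporter-like gene of cholinergic and aminergic neurons, had -1.49 (adjusted p = 3.24e-06), *Ppef1*, a calcium-binding phosphatase gene, had -1.43 and *Lrfn5*, a synaptic adhesion gene, had -1.08 (adjusted p = 3.55e-06). All 3 passed within 1 set as well, at -1.35, -1.35 and -1.16.

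**Figure D3:**
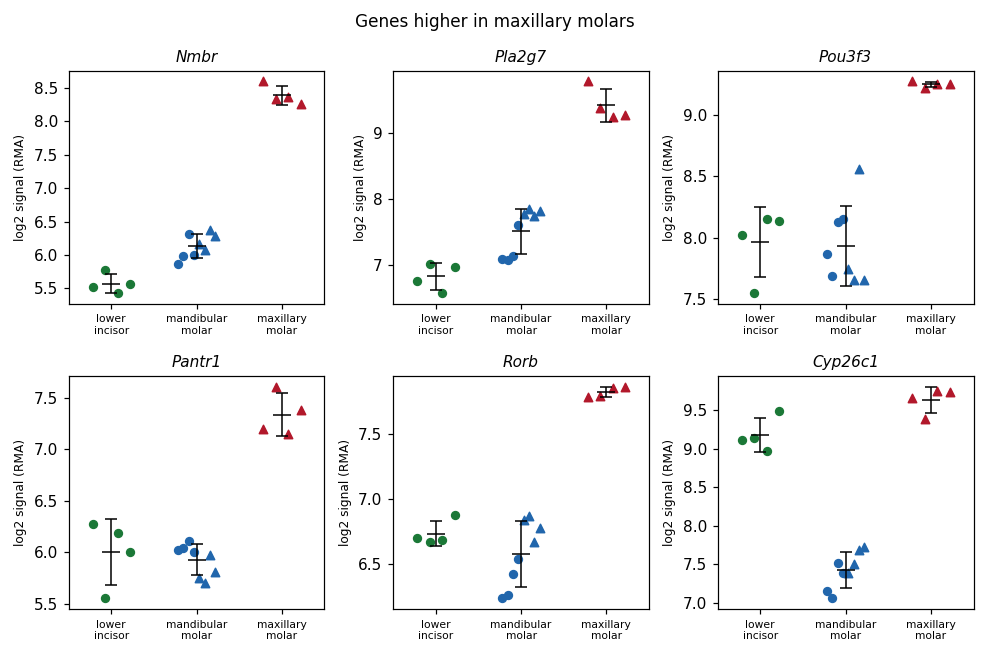
Log2 signal of *Nmbr*, *Pla2g7*, *Pou3f3*, *Pantr1*, *Rorb* and *Cyp26c1* for each array of the 3 tooth types, with bars at the mean and SD of each type and triangles for maxillary molars and mandibular molars 5 to 8. Maxillary molars are above all lower jaw samples in the first 5 panels, and for *Cyp26c1* lower incisor 4 at 9.49 lies above maxillary molar 2 at 9.38.

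Skeletal muscle genes had the largest share of higher genes among the lists examined. This list too was written with earlier results of these data known, so the share is a description. Of 49 genes of the muscle list 45 were higher in the pooled lower jaw and none lower, with a median log2 fold change of 0.85, against 2.37% of all probe sets higher. In incisors all 49 were higher (13.4% of all probe sets), in mandibular molars 27 (1.01% of all), and these 27 were program members. *Myh3*, the embryonic myosin heavy chain gene, had 9.64, 9.77, 9.67 and 9.48 in incisors, 8.17 to 10.05 with a median of 8.70 in mandibular molars and 6.36, 6.88, 6.50 and 6.98 in maxillary molars. *Actc1*, the cardiac alpha-actin gene that is also active in embryonic skeletal muscle, had 11.52 to 11.91 in incisors and 9.83 to 11.61 in mandibular molars, against 8.06 to 9.79 in the upper jaw. For both genes mandibular molar 2 was the highest molar sample, and for *Actc1* mandibular molar 7 at 9.83 lay next to maxillary molar 4 at 9.79. The log2 fold changes were 2.41 (standard error 0.30, adjusted p = 0.000502) and 2.14 (standard error 0.36, adjusted p = 0.00568). The giant sarcomere genes *Ttn* and *Neb* had 1.90 and 1.72, the myosin light chain genes *Myl4* and *Myl1* 1.66 and 1.64, and the intermediate filament gene *Des* 1.42. The myogenic factor gene *Myog* had 1.17 (adjusted p = 0.0485) and was no member, with 0.89 (adjusted p = 0.132) in mandibular molars. Probe sets of the actin and myosin families can share sequence, so their values are not independent of one another.

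The mean log2 signal of the muscle list was 6.38 to 6.67 in the upper jaw, 7.75 to 7.92 in incisors and 6.88 to 7.99 in mandibular molars. Each lower jaw sample thus lay above each maxillary sample, with mandibular molar 7 the lowest and mandibular molar 2 the highest. Between mandibular molars 5 to 8 and maxillary molars 13 of the 49 were higher, against 0.54% of all probe sets, with a median of 0.52. As these are samples of dissected tissue, more muscle cells and more muscle RNA per cell cannot be told apart. With the mean of the muscle list as a covariate, an alternative added after the data were seen, 19 probe sets passed at a fold change above 2 in place of 95. *Nkx2-3* had 1.98 (adjusted p = 8.24e-06) and *Dlx6* 1.64 (adjusted p = 0.052) in that fit. *Nmbr* had -1.84 (adjusted p = 0.000434), *Pantr1* -1.55 (adjusted p = 0.0032) and *Rorb* -1.15 (adjusted p = 0.0203). Of the 151 genes named by rule, 15 that had passed without the covariate turned sign in that fit. Genes that had not passed turned sign too, such as *Dlx1* at 0.29 and *Hand2* at -1.75. A further 73 lost the call with their sign kept. Among those that lost it were *Gsc* at 0.43 (adjusted p = 0.718), *Pitx1* at 1.04 (adjusted p = 0.391) and *Adamtsl3* at 0.78 (adjusted p = 0.238). *Pou3f3* had -1.14 (adjusted p = 0.114) and *Gabrb2* -0.91 (adjusted p = 0.304) with the covariate. Without it *Gsc*, *Pitx1* and *Adamtsl3* had pooled values of 0.93, 0.76 and 1.13. The muscle mean was higher in every lower jaw sample, so that fit cannot tell a link to muscle from the jaw itself. Genes of the muscle list were also part of the covariate.

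Promoter windows of a pair of muscle genes of the program, *Des*, the desmin gene, and *Tnnt2*, a troponin T gene, are printed because each holds the E-box CAGCTG, in capitals. Of the 174 genes higher in the lower jaw 137 had a promoter in the table, and 41 of these (29.9%) held CAGCTG. The share was 19.9% of the 161 promoters of genes higher in maxillary molars and 16.1% of all 27025 promoters. TAATTA was in 3.65% and 1.86% of them against 5.31% of all, TAATCC in 2.92% and 6.21% against 7.16%, and AGGTCA in 13.1% and 9.32% against 16%. TAATTA and CAGCTG read the same on both strands. The shares describe letters in a window, and no binding was measured.
Des (chr1:75360042-75360341, plus strand): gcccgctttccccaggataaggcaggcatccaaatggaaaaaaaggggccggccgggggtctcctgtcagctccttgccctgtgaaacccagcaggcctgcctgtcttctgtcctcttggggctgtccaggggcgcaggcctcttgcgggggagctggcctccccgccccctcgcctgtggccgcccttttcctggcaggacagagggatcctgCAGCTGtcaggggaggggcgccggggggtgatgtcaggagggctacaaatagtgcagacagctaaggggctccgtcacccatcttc
Tnnt2 (chr1:135836084-135836383, plus strand): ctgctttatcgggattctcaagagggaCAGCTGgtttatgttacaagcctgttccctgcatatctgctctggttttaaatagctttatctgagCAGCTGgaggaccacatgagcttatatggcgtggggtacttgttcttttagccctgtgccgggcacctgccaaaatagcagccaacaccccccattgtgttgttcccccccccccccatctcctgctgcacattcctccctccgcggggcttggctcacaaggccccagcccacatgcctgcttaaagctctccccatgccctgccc

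**Figure D4:**
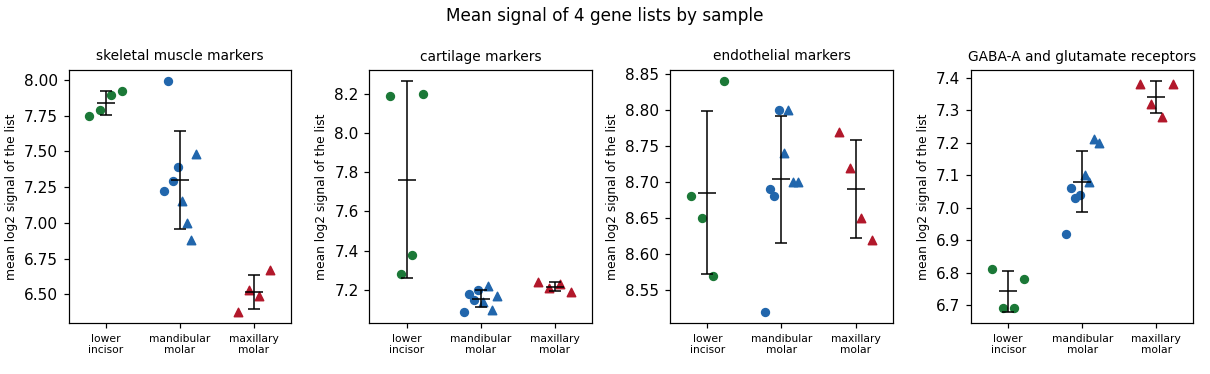
Mean log2 signal of the skeletal muscle, cartilage, endothelial and neurotransmitter receptor lists in each array, with bars at the mean and SD of each tooth type and triangles for maxillary molars and mandibular molars 5 to 8. The muscle mean is above 6.67, the highest maxillary value, in all 12 lower jaw samples, and the receptor mean is highest in maxillary molars at 7.28 to 7.38.

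Other genes higher in the lower jaw included matrix, T-box and neuronal genes. *Dpt*, the gene of the matrix protein dermatopontin, had 7.32, 6.82, 7.51 and 7.54 in incisors, 7.4 to 9.48 with a median of 8.34 in mandibular molars and 5.06, 6.53, 4.99 and 6.52 in maxillary molars. The upper jaw samples were split among themselves, and the lowest lower jaw sample, lower incisor 2, was close to maxillary molars 2 and 4. The log2 fold change was 2.21 (standard error 0.44, adjusted p = 0.0161), and with the set as a block the incisor value was 0.62 (adjusted p = 0.76). *Tbx18* and *Tbx22*, a pair of T-box genes of which the second is needed for the palate, had 1.59 (adjusted p = 0.0326) and 1.05 (adjusted p = 0.0118). Within 1 set they had 1.21 (adjusted p = 0.136) and 0.63 (adjusted p = 0.139). Of 25 T-box and forkhead genes 4 were higher in the pooled lower jaw, against 2.37% of all probe sets. As many, 4, were lower, against 2.68%, among them *Foxf2* and *Foxp2*, which were no members. Within 1 set 0 of the list were higher and 2 lower, against 0.54% and 0.743% of all. *Nefl*, the neurofilament light chain gene of axons, had 7.06, 8.14, 6.86 and 7.26 in incisors, 7.86 to 9.30 in mandibular molars, and between 6.17 and 6.70 in the upper jaw. Its log2 fold change was 0.80 in incisors and 2.22 in mandibular molars, and with the set as a block the incisor value was 0.01. *Adamtsl3*, a gene of a secreted ADAMTS-like protein, was at 1.25 and 1.08 in the tooth types (pooled 1.13, adjusted p = 0.000141) and passed within 1 set at 1.04 and with the set as a block at 1.17. *Lrrn1*, a leucine-rich repeat membrane protein gene, had 1.24 pooled, and 0.48 (adjusted p = 0.518) in incisors with the block.

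Among retinoic acid genes more were lower than higher in the lower jaw. Retinoic acid is made by aldehyde dehydrogenases and degraded by Cyp26 enzymes. Of 25 measured genes of its metabolism and receptors 7 were lower and 2 higher, against 2.68% and 2.37% of all probe sets, with a median of 0.09. The mean signal of the list was 8.18 to 8.27 in maxillary molars and 7.99 to 8.22 in the lower jaw, where lower incisor 2 alone lay within the maxillary range, so median and mean differ in sign. *Cyp26c1*, a degrading enzyme gene, had 9.66, 9.38, 9.75 and 9.73 in maxillary molars, 9.11, 9.13, 8.97 and 9.49 in incisors and 7.06 to 7.73 in mandibular molars. Incisors overlapped the upper jaw at 1 sample, and mandibular molars lay far below (log2 fold changes -0.45 and -2.20). The difference between the lower jaw tooth types was 1.74 (adjusted p = 7.99e-06), and with the set as a block the incisor value was -0.16 (adjusted p = 0.824). *Cyp26a1* was lower by 0.94 in incisors and by 0.90 in mandibular molars, and *Aldh1a1*, a gene of synthesis, by 0.70 and 0.76. *Aldh1a2*, the main embryonic synthesis gene, was lower by 1.93 and 0.81. *Rxrg*, a retinoid X receptor gene also known from muscle, was higher at 1.26 (adjusted p = 0.0182), and *Crabp2*, a binding protein gene, at 0.60.

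Some receptor subunit genes of synapses were also lower in the lower jaw. Of 27 tested genes of GABA-A and ionotropic glutamate receptors 7 were lower and 1 higher, with a median of -0.33, against 2.68% of all probe sets lower, and 19 did not pass. Within 1 set 4 were lower, against 0.743% of all probe sets. In mandibular molars with the set as a block 2 were lower, against 169 of all 29356 probe sets. *Gabrb2*, a GABA-A beta subunit gene, had 8.40, 8.19, 8.30 and 8.15 in maxillary molars, 6.32 to 6.78 in incisors and 6.84 to 7.29 in mandibular molars. The 3 tooth types formed steps without overlap (pooled -1.33, standard error 0.16, adjusted p = 0.000283). Other probe sets of the gene gave -2.24 and -1.42. *Gria1*, an AMPA receptor subunit gene, formed the same steps at 9.18 to 9.80, 6.34 to 6.96 and 8.03 to 8.73, with log2 fold changes of -2.71 in incisors and -0.96 in mandibular molars. *Gria2* and *Gabrb1* had pooled values of -1.11 and -1.04. The list's mean was 7.28 to 7.38 in maxillary molars, 6.92 to 7.21 in mandibular molars and 6.69 to 6.81 in incisors. Of 25 neuron markers 2 were higher and 1 lower, against 2.37% and 2.68% of all probe sets, with a median of 0.11.

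Of the signalling lists the program held 5 of 50 BMP and TGF-beta genes, 5 of 59 Wnt, 3 of 28 Notch, 2 of 30 FGF and 1 of 15 Hedgehog genes, against 1.72% of all probe sets. *Chrdl1*, a gene of a chordin-like BMP antagonist, was lower at -1.39 (standard error 0.21, adjusted p = 0.00286) with no overlap, at 9.18 to 9.31 in maxillary molars and 7.08 to 8.46 in the lower jaw. *Gdf10*, a gene of a TGF-beta family ligand, was higher at 0.94 (adjusted p = 0.045), and more so in incisors, by 0.90 (adjusted p = 0.000575) over mandibular molars. Pooled, 3 of the BMP and TGF-beta genes were higher and 5 lower, against 2.37% and 2.68% of all probe sets, which also hold for the lists that follow. Of 30 FGF genes 3 were higher and 1 lower, among them the ligand gene *Fgf18* at 0.62 and the receptor gene *Fgfr4*, also a muscle progenitor gene, at 0.77. Of 59 Wnt genes 8 were higher and 5 lower, with the ligand gene *Wnt2* at -0.65 and the R-spondin gene *Rspo1*, an enhancer of Wnt signalling, at -0.66. Of 28 Notch genes 4 were higher and 1 lower, with the ligand gene *Dll1* at 0.43 and *Dtx4* at 0.64. Of 15 Hedgehog genes the coreceptor gene *Gas1* was higher at 0.52 (adjusted p = 0.00686) and the receptor gene *Ptch1* lower at -0.55 (adjusted p = 0.0672). *Ptch1* was no member, as no Hedgehog gene passed as lower in mandibular molars. The medians of these 5 lists lay between -0.04 and 0.03.

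**Figure D5:**
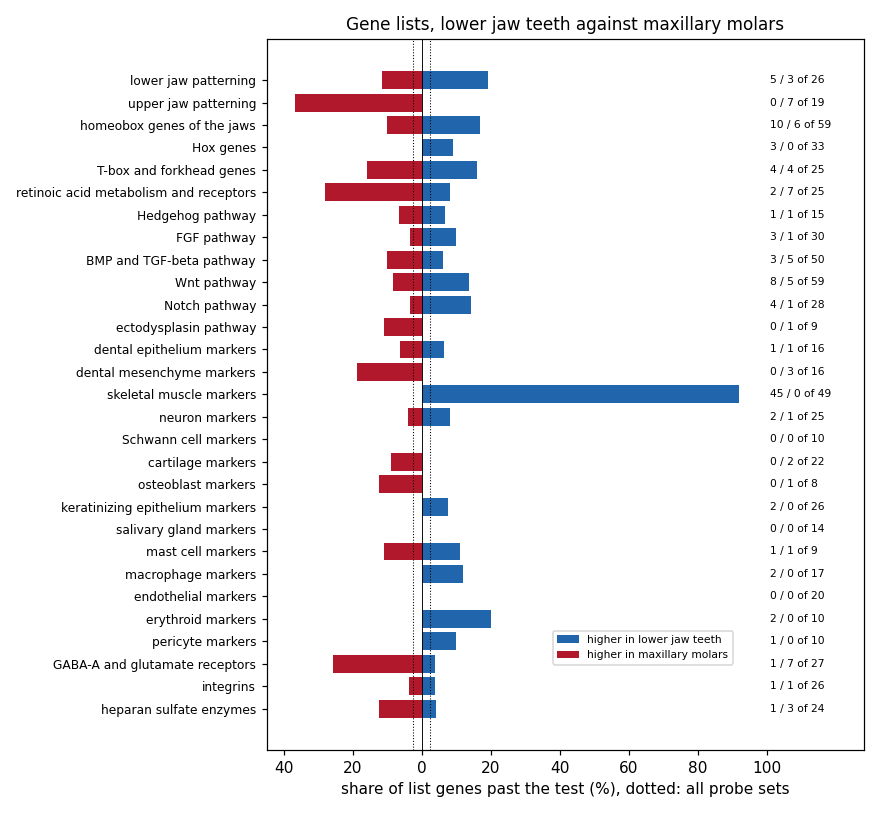
Share of the genes of each list that were higher (right) or lower (left, higher in maxillary molars) in the 12 lower jaw samples at an adjusted p under 0.1 and a fold change above 1.2, with the counts at the right and dotted lines at the 2.37% and 2.68% of all probe sets. Skeletal muscle has 45 of 49 higher, and upper jaw patterning (7 of 19), retinoic acid (7 of 25) and receptor genes (7 of 27) have the longest bars to the left.

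Markers of the other cell types of a dissected germ were measured beside these results. Of 20 endothelial, 10 Schwann cell and 14 salivary gland genes tested, 0 passed in the pooled lower jaw. At an unadjusted p under 0.05, which 26.3% of all probe sets met, 3 endothelial genes were higher and 1 lower, 3 Schwann cell genes were higher and 0 lower, and 3 salivary gland genes were higher and 0 lower. The endothelial mean was 8.52 to 8.84 in the lower jaw and 8.62 to 8.77 in the upper. Pooled calls in the lists that follow stand against 2.37% of all probe sets higher and 2.68% lower. Of 22 cartilage genes 2 were lower and none higher, while in incisors 15 were higher, against 13.4% of all, and the incisor mean of 7.28 to 8.20 was above that of maxillary molars, 7.19 to 7.24. Of 9 mast cell genes 1 was higher and 1 lower, and of 26 genes of keratinizing epithelium 2 were higher. Of 10 erythroid genes 2 were higher, with a median of 0.54, and their mean was 7.27 to 8.41 in the lower jaw and 7.27 to 7.67 in the upper. Of 17 macrophage genes 2 were higher. In incisors 5 of 9 erythroid and 4 of 10 Schwann cell genes were higher and 0 lower. Macrophage genes had 2 higher and 2 lower there, endothelial genes 3 and 3, and salivary gland genes 2 and 2. The part of these cell types in the other results was not tested. The mean of the dental mesenchyme list was 10.59 to 10.71 in the upper jaw, 9.74 to 9.99 in incisors and 10.17 to 10.61 in mandibular molars. That of the dental epithelium list was 9.40 to 9.64, 9.04 to 9.27 and 8.93 to 9.65, in the same order. In incisors 11 of 16 mesenchyme and 10 of 16 epithelium genes were lower than in maxillary molars, against 14.4% of all probe sets, and the part of this shift in the program was not tested. Pooled, 3 of the mesenchyme genes were lower and none higher, and the program held *Dlx1*, *Lhx6* and *Lhx8* as lower. The LIM-homeobox genes *Lhx6* and *Lhx8* were lower by 2.75 and 0.65 in incisors and by 0.51 and 0.27 in mandibular molars.

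The size of the jaw difference was set side by side in both lower jaw tooth types through incisors against mandibular molars. The members were chosen on these same samples, so the counts are a description. Of the 223 higher members 43 differed between the tooth types and of the 271 lower members 91, against 4.96% of all probe sets. Of these, 40 and 87 had the larger difference from maxillary molars in incisors, and 3 and 4 in mandibular molars. The total of 134 was 85 without lower incisor 3. *Six2*, a homeobox gene of craniofacial mesenchyme, was lower by 2.94 in incisors and by 0.81 in mandibular molars. *Cxcl5*, a chemokine gene, was lower by 2.25 and 1.06. *Itga8*, an integrin gene, was one of the few with the larger change in mandibular molars, at -0.44 in incisors and -1.15 in mandibular molars. Genes of opposite sign were no members. *Alx1*, an aristaless-like homeobox gene of facial mesenchyme, was higher in incisors by 2.73 and lower in mandibular molars by 1.68. The heparanase gene *Hpse2* had 4.23 and -0.69. The teneurin gene *Tenm1* went the other way with -1.43 and 0.41, and so did the transcription factor gene *Dach1* with -0.81 and 0.37.

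Within the set of mandibular molars 5 to 8 and maxillary molars, 77 of the 223 higher and 147 of the 271 lower members passed, against 0.54% and 0.743% of all probe sets tested there. These samples are part of those that chose the members, so the counts are a description. The total of 224 was 89 without maxillary molar 2, 116 without maxillary molar 1, 131 without maxillary molar 3, 113 without mandibular molar 5 and 120 without mandibular molar 6. With the sample set as a block in a fit of all 3 groups, 37 of the higher and 110 of the lower members passed in both tooth types. By the same rule 47 of all 29356 probe sets tested were higher and 122 lower. The incisor difference then changed sign for 4 of the 223 higher and 1 of the 271 lower members. *Nkx2-3*, *Adamtsl3*, *Nmbr*, *Pla2g7*, *Pou3f3*, *Pantr1* and *Rorb* passed in each of the pooled, separate, within-set and blocked comparisons, and were singled out after their values were seen. Other described members passed in each as well, among them *Gsc*, *Myh3*, *Ttn*, *Lrfn5* and *Gabrb2*. The mandibular log2 fold change with the block equals that within the set, so these comparisons are not separate results. Of the members described above 40 passed within this set. The other 16 did not, at log2 fold changes of 1.55 for *Actc1* (adjusted p = 0.154), 2.09 for *Dpt* (0.102), 0.72 for *Lrrn1* (0.202), 0.80 for *Tnnt2* (0.113), 0.73 for *Rxrg* (0.128) and 0.31 for *Crabp2* (0.133). *Tbx18* and *Tbx22* have been given, and *Tbx4* had 0.25, under the fold threshold. On the maxillary side they were *Bmper* at -0.45 (adjusted p = 0.171), *Aldh1a2* at -0.75 (0.125), *Rspo1* at -0.45 (0.138) and *Gria2* at -0.51 (0.162). *Gabrb1* had -0.47 (adjusted p = 0.266), *Lhx6* -0.39 (0.113) and *Lhx8* -0.26 (0.103).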

How the data were processed

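RNA of each pool of 4 germs was hybridised to 1 Affymetrix Mouse Gene 1.0 ST array. The deposited files hold the authors' log2 values after RMA, which corrects background, normalises by quantiles and summarises probes. The submitters' processing notes name Affymetrix Expression Console 1.1. The study's methods discarded 1 incisor sample, with high background after a technical problem at hybridization, without naming it in the sources used here. All 4 were used, so the incisor comparisons and the program include that array. Groups came from the labels. Of 35556 probe sets 21789 carried 1 gene symbol. Each gene is represented by its brightest probe set on average.

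Probe sets above 5 in at least 1 compared sample were tested with limma 3.58.1 in R 4.3.3 (two-sided, Benjamini-Hochberg), each comparison on its own samples, and the script was tested on simulated data. Values are log2 signals, and array number limits their precision. The members and the 31 gene lists were chosen with earlier results of these data known. Genes named were, by rule, up to 16 non-overlapping program members per direction, the jaw patterning lists, up to 4 per other list, up to 6 per direction with the smallest change within 1 set and up to 5 per direction with opposite signs. *Lhx6*, *Six2*, *Aldh1a1*, *Cyp26a1* and *Crabp2* were added after their values were seen. Alternatives covered filters, floors, normalization, weights, variance models, the methods' t-test, subsets, blocks and left-out samples. Promoters came from RefSeq, where 137 of 174 higher and 161 of 209 lower genes matched.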

Additional observations from a re-analysis of the deposited data

Results flagged for a closer look

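Among 189 sets of values, each of 1 gene or the muscle mean in 1 group, 11 held a sample far from the others, where chance gives about 1 in 20. Mandibular molar 2 stood apart for *Ttn* at 9.16, with the rest of its group at 7.33 to 8.19. For *Nkx2-3* it was at 7.91 against 8.27 to 8.42. For *Tnnt2* it was at 10.03 against 8.25 to 9.0. For *Gsc* it was at 8.80 against 8.03 to 8.31. For *Myog* it was at 8.16 against 6.43 to 7.23. Mandibular molar 6 stood apart for *Gabrb2* at 6.84, with the rest of its group at 7.08 to 7.29. Lower incisor 4 stood apart for *Rorb* at 6.88, with the rest of its group at 6.67 to 6.70. Lower incisor 3 stood apart for *Dlx6* at 7.96, with the rest of its group at 8.79 to 8.88. Lower incisor 2 stood apart for *Tbx4* at 7.48, with the rest of its group at 7.86 to 7.93. Maxillary molar 3 stood apart for *Fgf18* at 8.83, with the rest of its group at 9.02 to 9.04. For *Gdf10* it was at 8.71 against 9.01 to 9.05.

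The difference from maxillary molars itself differed between incisors and mandibular molars by more than 1 on the log2 scale, in the limma test of these groups against each other, for 8 of the program members described above by the naming rule. These members were chosen on the same samples. Tooth type, sample set and the size of the jaw difference cannot be told apart here. *Cxcl5* differed by -1.19 (adjusted p = 9.68e-05), with -2.25 in incisors and -1.06 in mandibular molars. *Gria1* differed by -1.75 (adjusted p = 1.96e-05), with -2.71 in incisors and -0.96 in mandibular molars. *Bmper* differed by -1.46 (adjusted p = 0.000202), with -2.16 in incisors and -0.70 in mandibular molars. *Dlx1* differed by -1.40 (adjusted p = 1.32e-06), with -1.78 in incisors and -0.38 in mandibular molars. *Cyp26c1* differed by 1.74 (adjusted p = 7.99e-06), with -0.45 in incisors and -2.20 in mandibular molars. *Aldh1a2* differed by -1.12 (adjusted p = 0.00221), with -1.93 in incisors and -0.81 in mandibular molars. *Nefl* differed by -1.42 (adjusted p = 0.0166), with 0.80 in incisors and 2.22 in mandibular molars. *Gria2* differed by -1.03 (adjusted p = 0.0118), with -1.80 in incisors and -0.77 in mandibular molars.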

How the results depend on the processing

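The sign of the pooled difference changed in at least 1 planned setting for 23 of the 151 named genes. These had pooled values of -0.37 to 0.21, of which 0 passed the pooled limma test, and *Alx1* passed with the other sign, at 0.53, with equal weights of the tooth types. The 95 pooled probe sets past a fold change of 2 became 189 with equal weights, 333 with mandibular molars 1 to 4 only, 58 with 5 to 8 only, 55 with the sample set as a block and 19 with the muscle covariate. The 530 of incisors became 205 with the set block and 318 with 1 probe set per gene. The 57 of mandibular molars became 278 with 1 to 4 only, 31 with 5 to 8 only and 36 with the set block. The program of 494 became 320 with the methods' t-test, 4181 with mandibular molars 1 to 4 only, 250 with 5 to 8 only and 169 with the set block, and the 224 members within 1 set became 82 with that t-test. With quantile normalization the program had 390 probe sets, 165 higher and 225 lower. With each sample centred on its median it had 401, 150 higher and 251 lower, in place of 223 and 271. With the replicate number as a block the pooled, mandibular and program counts were 332, 280 and 4349, of which 480 were among the 494. Same-numbered samples correlated in their deviations at -0.07 to 0.50 and not every sample correlated best with its own number, so the numbers were not taken to pair samples. That fit gives mandibular molars 5 to 8 numbers of their own, so they add nothing to it. Leaving out 1 sample at a time gave 44 to 139 pooled, 479 to 673 incisor and 39 to 67 mandibular probe sets, a program of 207 to 675, 89 to 209 members within 1 set and 85 to 166 members that differed between the lower jaw tooth types. The muscle covariate, chosen after seeing the data, turned the sign of these genes that had passed, *Tnnt2* (-0.15), *Tnni1* (-0.25), *Tbx4* (-0.01), *Bmper* (0.26), *Dlx2* (0.07), *Rxrg* (-0.02), *Fgfr4* (-0.01), *Rfng* (-0.01), *Kit* (0.04), *Prkcq* (-0.15), *Casq2* (-0.36), *Mylk4* (-0.43), *Hjv* (-0.37), *Myog* (-0.31) and *Mymk* (-0.34). *Tnnt2*, *Tnni1*, *Casq2*, *Myog* and *Mymk* belong to the muscle list, so their own signal was part of the covariate. The cause of these changes was not tested. Only 4 upper jaw arrays, and 1 upper tooth type, carry the whole comparison.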

Other observations

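Further gene families were looked at after their values were seen and support nothing beyond these values. Of 13 Eph receptor genes, receptors of contact-mediated guidance, 4 were program members lower in the lower jaw (*Epha3*, *Epha5*, *Epha6* and *Epha7*), and the median of the family was -0.15. The program held 0.941% of all probe sets as lower and 0.775% as higher. Both monoamine oxidase genes, *Maoa* and *Maob*, which degrade amine transmitters, were lower at -0.77 and -0.94. Of 6 contactin genes of neural adhesion 2 were members, and their median was -0.96. Of 15 probe sets of the protocadherin-like gene *Fat3* 8 were lower members, with all values between -0.82 and -0.15. On the other side, 2 of 4 *Gjb* connexin genes and both *Abca8* transporter genes were higher members, the latter at 0.65 and 0.75, as were 4 of 9 probe sets of *Megf6*.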
